A study of Homo sapiens with 8 samples.

Results

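The genes described here code for the proteins of the cytosolic ribosome. They were taken by symbol: each probe set paired with exactly 1 gene whose symbol was RPL or RPS with a number and at most a letter A, L, X or Y, together with the acidic stalk genes. The rule left out pseudogenes, RPS27L and the S6 kinases. It found 93 probe sets of 60 genes, 39 of the large and 21 of the small subunit, among 18417 genes tested. The rule itself reads symbols and no measured value. RPLP0 and RPSA, which the rule also names, are not analysed here.

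The cells were HCT116, an established human colorectal cancer line, carrying either a control hairpin (shControl) or a hairpin directed at CDK8 (shCDK8), the kinase of the Mediator complex that joins transcription factors to RNA polymerase II. All cells were kept without serum for 40 h in McCoy's medium. RNA was then taken at once (starved) or once 10% serum had been given back for 30 min (serum), with 2 arrays in each of the 4 groups: starved shControl, serum shControl, starved shCDK8 and serum shCDK8. The labels name 1 hairpin for each line. The labels do not say whether the 2 arrays of a group came from separate cultures, so p-values reflect how far these 2 samples of a group lie apart, a spread that may be technical.

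Cytosolic ribosomal proteins are made in balanced amounts, since nearly all are held in a single copy by each ribosome, and together with ribosomal RNA they form a small subunit, which reads the mRNA, and a large subunit, which joins amino acids. Their mRNAs are long-lived and abundant in growing cells. Most of them begin with a C followed by a run of pyrimidines, the 5′ terminal oligopyrimidine (TOP) tract, through which mTOR and LARP1 hold back or release their translation when serum or nutrients change. That control acts on the use of the mRNA by ribosomes, which an array of total RNA does not read.

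RefSeq start sites on GRCh38.p14 were taken for 49 of the 60 genes, 59 starts in all. Among the 11 genes outside these counts, RPL7, RPL8, RPL30 and RPS20 were left out by choice. Their absence does not mean that no start was listed for them. The start regions below are shown because the TOP tract, where present, is the site through which serum can act on translation of these mRNAs. Each has 10 bases before the listed start and 20 from it, and capitals mark a TOP tract that begins at the start base (a C, then at least 4 bases each C or T). The first 4 genes are those that differed between the lines, and the others are the substrate of S6 kinase, the stalk, MDM2-binding, longest-tract and shortest-tract members, followed by RPL22 and RPS14.
RPS23: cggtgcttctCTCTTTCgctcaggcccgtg
RPS19: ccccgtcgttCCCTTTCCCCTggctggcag
RPS24: aatcgtggttCTCTTTTCCTCCTTggctgt
RPS15: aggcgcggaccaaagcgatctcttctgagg
RPS6: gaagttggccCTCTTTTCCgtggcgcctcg
RPLP1: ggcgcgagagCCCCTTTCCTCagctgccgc
RPLP2: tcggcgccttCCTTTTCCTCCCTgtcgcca
RPL11: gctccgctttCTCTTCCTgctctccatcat
RPL7A: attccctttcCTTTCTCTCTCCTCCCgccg
RPL41: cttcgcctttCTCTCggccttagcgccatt
RPL22: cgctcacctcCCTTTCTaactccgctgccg
RPS14: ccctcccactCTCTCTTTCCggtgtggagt

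The RPS23 window is chr5:82278335-82278364 on the minus strand and the RPS19 window chr19:41860245-41860274 on the plus strand. RPS24 lies at chr10:78033853-78033882 (plus) and RPS15 at chr19:1438386-1438415 (plus). RPS6 lies at chr9:19380217-19380246 (minus), RPLP1 at chr15:69452808-69452837 (plus) and RPLP2 at chr11:809957-809986 (plus). RPL11 lies at chr1:23691796-23691825 (plus), RPL7A at chr9:133348208-133348237 (plus) and RPL41 at chr12:56116623-56116652 (plus). RPL22 lies at chr1:6199576-6199605 (minus) and RPS14 at chr5:150449720-150449749 (minus). Each window spans the first bases of the gene's exon 1 and the bases just before it.

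A TOP tract stood at 36 of the 59 listed starts (61.0%), 1 in each of 36 genes, against 4.07% of 35116 starts of all genes in the same table. The tracts ran from 5 bases in RPL41 to 16 in RPL7A, with a median of 8. RPS23, RPS24 and 1 of the 2 listed starts of RPS19 had one. RPS15 had none at its listed start, which says only that these letters are not at that position. In the 300-base window from 250 before to 50 after the start, on both strands, the ETS core CGGAAG was found at 64.4% of the members' starts against 19.5% of all starts, and the GC box GGGCGG at 59.3% against 45.0%. TATAA was as frequent at the members' starts (20.3%) as at all starts (20.4%). AAGATGG, the core of the YY1 site, was found at 10.2% against 5.84%, and the E box CACGTG at 5.08% against 7.26%. The members' shares cover only the 49 genes taken, while the starts of all genes were counted without leaving any out in that way. These are letter matches and not measured binding.

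On the deposited log2 scale the ribosomal protein genes lay at the top of the array. The median of their mean levels over the 8 arrays was 11.8, against 7.09 for all genes, and 38 of the 60 stood at or above the 99th percentile of all genes' mean levels, 48 at or above the 95th. These values give a place on the array's scale and do not order the genes by abundance, since each probe set has its own response. RPL5, which with RPL11 and 5S rRNA can bind MDM2, stood highest, with a mean level of 13.04. RPS3, RPL4, RPS3A and RPS27 followed with mean levels of 13.04, 12.90, 12.84 and 12.80. The genes lie on 20 chromosomes, 8 of them on chromosome 19.

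The 3 genes below the 50th percentile were the tissue-restricted paralogs. RPL39L had a mean level of 4.49 over the 8 arrays (from 4.36 to 4.58), RPL10L one of 6.23 (from 5.99 to 6.39) and RPL3L, a muscle paralog, one of 6.83 (from 6.74 to 6.90). RPL3, the core protein near the peptidyl transferase centre to which RPL3L is related, had a mean level of 12.76, and RPL10 one of 10.29. RPL22 (7.90) and RPL32 (7.78) had the next lowest means, although both code for general ribosomal proteins. None of the 3 paralogs passed the test in any of the 7 comparisons. Their line averages were -0.06 ± 0.06 (SE) for RPL39L, 0.00056 ± 0.08 for RPL10L and 0.0019 ± 0.05 for RPL3L.

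Ribosomal protein levels moved little over the whole experiment. The range from the lowest to the highest of the 8 arrays had a median of 0.170 (log2) over the 60 genes and of 0.311 over all genes, and it was under 0.25 in 44 of the 60 genes against 31.5% of all genes. RPS15A had the narrowest range, 0.057, and RPL10 the widest, 0.571. The median residual SD was 0.051 among the 60 genes and 0.079 among all genes. It was 0.038 among 16 other TOP mRNAs and 0.041 among 34 translation factors, so a small spread is not particular to the members. The members lie near the top of the scale, and their range was not set beside that of genes of like level. The heat map shows the members' deviations by array.

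**Figure D1:**
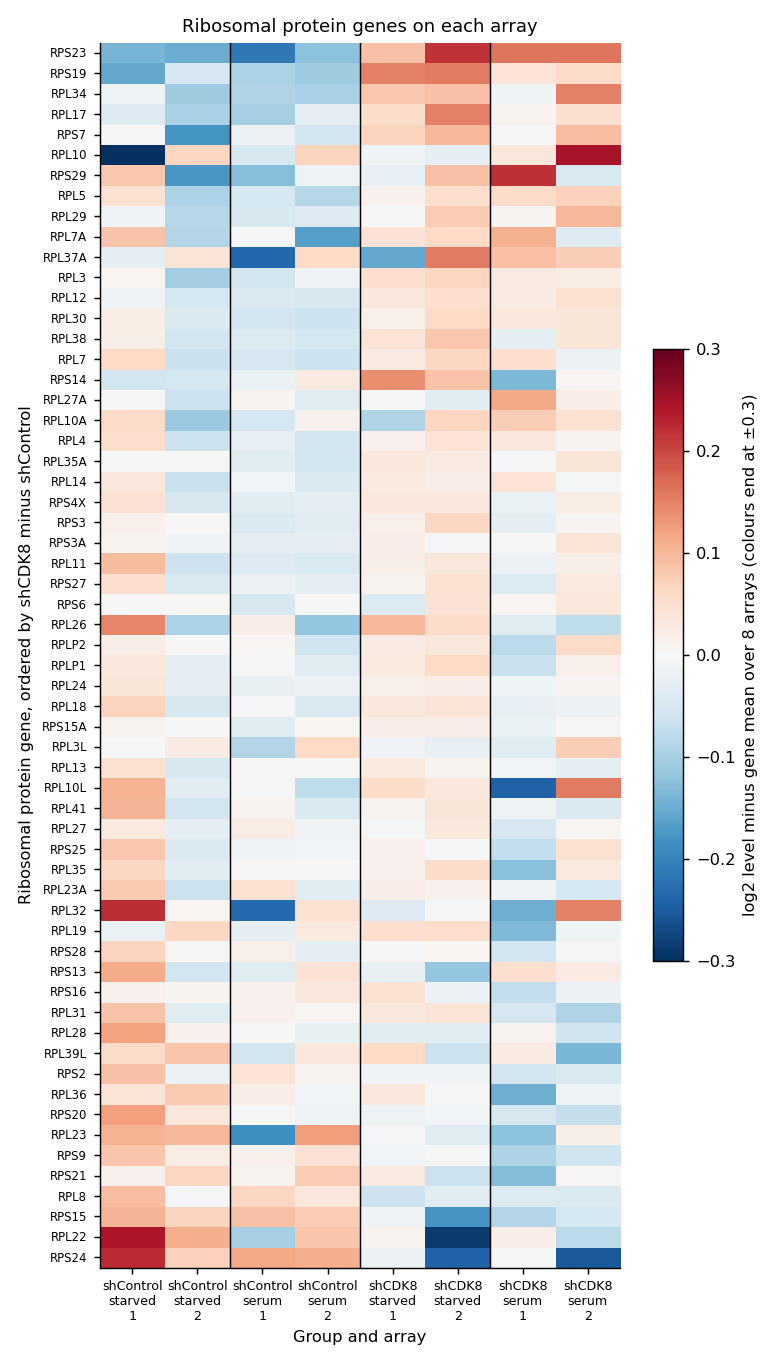
Deviation of each gene's log2 level from its own mean over the 8 arrays, for the 60 ribosomal protein genes (vertical axis, ordered by the average shCDK8 minus shControl difference) on each array (horizontal axis, grouped by line and serum). Red is above and blue below the gene's mean, with colours ending at ±0.3; RPS23 and RPS19 at the top are blue in the shControl arrays and red in the shCDK8 arrays, RPS24 and RPS15 near the bottom mostly the reverse, and starved shControl array 1 is red in most genes.

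The hairpin's effect on its target was read on 1 probe set to which the annotation gives 2 genes, CDK8 and ADRA1B. Its log2 level was 9.23 and 9.20 on the starved shControl arrays, 9.22 and 9.19 on the serum shControl arrays, 7.09 and 6.99 on the starved shCDK8 arrays and 7.04 and 7.06 on the serum shCDK8 arrays. It was lower in shCDK8 cells by 4.53-fold when starved and 4.45-fold after serum (limma, adjusted p = 0.000159 and 0.000171), in the direction the labels give. Markers of colon epithelium had array medians from 8.63 to 8.98. Those of blood and endothelium (7 measured) lay between 5.21 and 5.49, and those of fibroblasts (8 measured) between 5.93 and 6.23. Single genes departed from these medians. The colon markers CEACAM5 (4.94 to 5.16), VIL1 (5.38 to 5.77) and LGALS4 (6.16 to 6.53) were low. The fibroblast markers COL1A1 (7.95 to 8.50) and ACTA2 (7.34 to 8.01) were the highest of their list. On the average over both times 3 of the 12 colon markers were higher and 2 lower in shCDK8 cells, 1 of the 8 fibroblast markers was higher and 0 of the 7 blood and endothelial ones passed, where 23.3% of all genes did. Their part in the line differences given below was not tested.

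Serum for 30 min changed no ribosomal protein gene past the threshold. In shControl cells 0 of 60 passed (limma's moderated test, Benjamini-Hochberg over all genes, adjusted p below 0.05), where 0.462% of all genes passed, and 0 had an unadjusted p below 0.05 against 9.02% of all genes. In shCDK8 cells 0 of 60 passed against 0.255% of all genes, with 1 at an unadjusted p below 0.05 against 9.59%. Averaged over both lines 0 of 60 passed against 0.760% of all genes, with 0 at an unadjusted p below 0.05 against 14.5%. The alternative with an intensity trend in the variance also called 0 in these 3 comparisons. With so few genes called in all, 0 of 60 is near the background of adjusted calls, while the unadjusted counts of the members are lower than the shares of all genes. In bulk RNA, fewer cells that hold a transcript and less of it per cell cannot be told apart, and a change of all RNA together is not seen after quantile normalization.

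The serum changes were bounded as well as small. The 95% interval of the change lay inside ±0.5 on the log2 scale, a change of 1.41-fold, in all 60 genes in both lines and in the average; over all genes it did so in 96.6% in shControl cells, 96.9% in shCDK8 cells and 98.98% in the average. The median change was -0.025 in shControl cells, with 46 of 60 genes below 0, against -0.014 and 55.9% below 0 over all genes. It was -0.031 in shCDK8 cells, with 43 below 0, against -0.0100 and 53.7% below 0 over all genes. The large subunit's medians were -0.033 and -0.025 and the small subunit's -0.024 and -0.033 in shControl and shCDK8 cells.

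The starved shControl duplicates lay further apart than any of these medians. Starved shControl array 1 read above array 2 in 50 of the 60 genes, by a median of 0.0825. Over all genes 49.8% read higher on array 1, and the median gap was -0.00059. In the other groups the members' median gap was 0.0065 (serum shControl), -0.0063 (starved shCDK8) and -0.024 (serum shCDK8), both shCDK8 gaps smaller in size than the shCDK8 serum median. Without starved shControl array 1 the shControl serum median was 0.012, and without array 2 it was -0.060, so its sign rests on which starved array is kept. The plot of medians by array gives each array's shift.

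**Figure D2:**
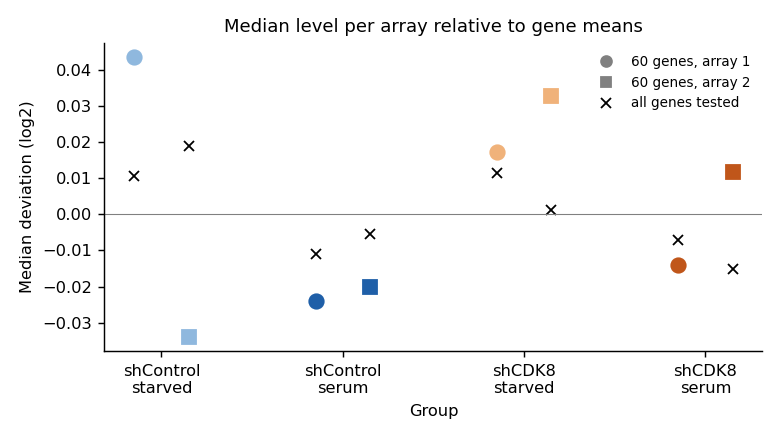
Median deviation (log2) from each gene's own mean over the 8 arrays, for the 60 ribosomal protein genes (circles, array 1; squares, array 2) and for all genes tested (crosses), by group. Starved shControl arrays 1 and 2 lie apart at 0.044 and -0.034, which is further than any other duplicate pair.

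RPS14 had the smallest unadjusted p of the members in either serum comparison of 1 line. RPS14, a small subunit protein whose loss marks the 5q- syndrome, had log2 levels of 11.48 and 11.48 on the starved shControl arrays, 11.52 and 11.57 on the serum shControl arrays, 11.68 and 11.62 on the starved shCDK8 arrays and 11.40 and 11.54 on the serum shCDK8 arrays. The starved shCDK8 arrays were the highest and did not overlap any other group. The serum difference of RPS14 was -0.18 ± 0.07 in shCDK8 cells (SE, adjusted p = 0.492, limma) and 0.06 ± 0.07 in shControl cells (adjusted p = 0.852).

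RPL22, a large subunit protein, had log2 levels of 8.14 and 8.01 on the starved shControl arrays, 7.80 and 7.98 on the serum shControl arrays, 7.91 and 7.61 on the starved shCDK8 arrays and 7.92 and 7.82 on the serum shCDK8 arrays. The starved shControl arrays were its highest, and the duplicates of the other groups were spread over up to 0.30. Its serum difference was -0.19 ± 0.11 in shControl cells (adjusted p = 0.655) and 0.11 ± 0.11 in shCDK8 cells (adjusted p = 0.766, limma). RPL32 gave -0.21 ± 0.12 in shControl cells (adjusted p = 0.659) and RPS20 -0.09 ± 0.06 (adjusted p = 0.746, limma). RPL10 gave the largest serum values above 0, 0.14 ± 0.12 in shControl and 0.16 ± 0.12 in shCDK8 cells (adjusted p = 0.788 and 0.693, limma). Its average over both lines, 0.15 ± 0.09, had the smallest adjusted p of the members in that comparison, 0.443. RPL19, of the large subunit, gave -0.12 ± 0.07 in shCDK8 cells (adjusted p = 0.596, limma).

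No member with a known role in growth signalling passed after serum. RPS6, which S6 kinases phosphorylate after serum, had log2 levels of 12.21 and 12.22 (starved shControl), 12.17 and 12.22 (serum shControl), 12.17 and 12.26 (starved shCDK8) and 12.22 and 12.25 (serum shCDK8). Starved and serum arrays overlapped in both lines, and the serum difference of RPS6 was -0.024 ± 0.06 in shControl and 0.019 ± 0.06 in shCDK8 cells. The stalk proteins RPLP1 and RPLP2, which recruit elongation factors, gave -0.019 ± 0.07 and -0.037 ± 0.07 in shControl cells, and -0.07 ± 0.07 and -0.040 ± 0.07 in shCDK8 cells. RPL5 and RPL11 gave -0.045 ± 0.07 and -0.06 ± 0.07 in shControl cells, and 0.031 ± 0.07 and -0.025 ± 0.07 in shCDK8 cells. All adjusted p-values of these genes were 0.752 or more (limma).

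The serum response of the 2 lines was also compared directly. For this difference, shCDK8 response minus shControl response, 0 of 60 genes passed, as did 0.00% of all genes (703 of 18417 had an unadjusted p below 0.05, and 7 passed with an intensity trend in the variance). RPS14 was the 1 member with an unadjusted p below 0.05, at -0.24 ± 0.10 (adjusted p = 0.9998, limma). RPL22 gave 0.29 ± 0.15 and RPL32 0.23 ± 0.17. The interval lay inside ±0.5 in 57 of the 60 genes, so that a larger difference is not bounded away in 3.

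Between the lines, the main model called a few small subunit genes and no large subunit gene. In starved cells 2 of 60 genes were higher in shCDK8 cells and 0 lower, where 13.4% of all genes differed, 7.13% higher and 6.28% lower. After serum 1 of 60 was higher and 0 lower, where 14.2% of all genes differed, 7.70% higher and 6.54% lower. Averaged over both times 2 were higher and 2 lower, where 23.3% differed, 12.0% higher and 11.3% lower. As shares of the 60 genes these counts are 3.33%, 1.67% and 6.67%, each below that of all genes. All 4 genes of the average are among the 21 of the small subunit, 19.05% of them, which is also below the 23.3% of all genes. Of the 39 large subunit genes 0 passed there (2, or 5.13%, had an unadjusted p below 0.05, against 33.2% of all genes). With an intensity trend in the variance, 8 of the 14 genes called on average were of the large subunit. The difference between the subunits was not tested.

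**Figure D3:**
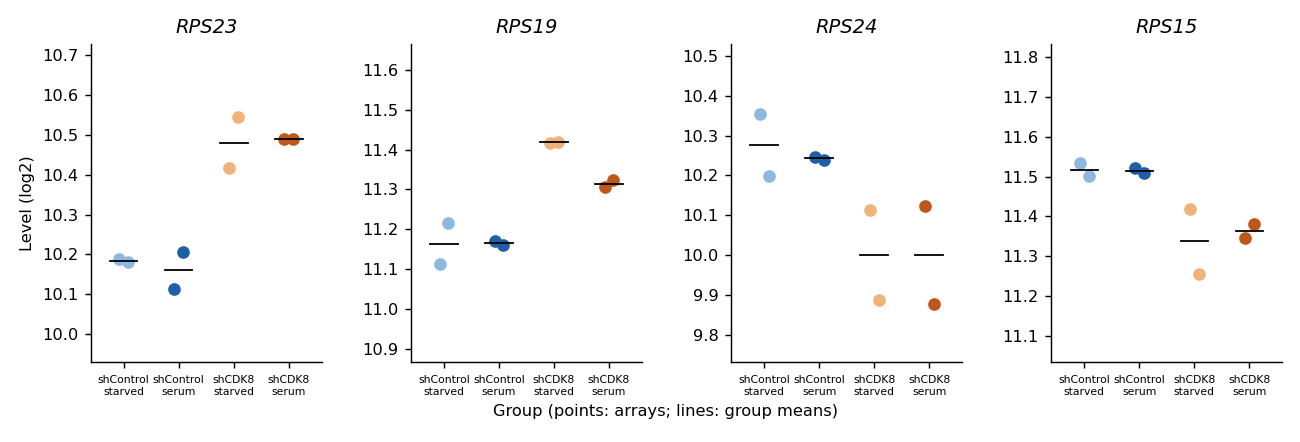
Log2 level of RPS23, RPS19, RPS24 and RPS15 on each array (points) with the mean of the 2 arrays (lines), by group; each panel spans 0.8 on the log2 axis. RPS23 and RPS19 are higher and RPS24 and RPS15 lower on all 4 shCDK8 arrays than on all 4 shControl arrays, whether starved or after serum.

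RPS23, a protein of the decoding centre, had the largest line difference. Its log2 level was 10.19 and 10.18 on the starved shControl arrays, 10.11 and 10.21 on the serum shControl arrays, 10.42 and 10.54 on the starved shCDK8 arrays and 10.49 and 10.49 on the serum shCDK8 arrays. All 4 shCDK8 arrays lay above all 4 shControl arrays. RPS23 was higher by 0.30 ± 0.07 in starved cells (1.23-fold, adjusted p = 0.0211), by 0.33 ± 0.07 after serum (1.26-fold, adjusted p = 0.0118) and by 0.31 ± 0.05 on average (1.24-fold, adjusted p = 0.00132, limma). The average stayed past the threshold under all 14 alternatives, with adjusted p-values up to 0.00799. The starved call was lost without either starved shControl array (adjusted p = 0.0790 and 0.0877) and without starved shCDK8 array 2 (0.144). The call after serum was lost without serum shControl array 1 (adjusted p = 0.0972, limma) and without either serum shCDK8 array (0.0570 and 0.0573).

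RPS19, a small subunit protein mutated in Diamond-Blackfan anaemia and needed to mature 18S rRNA, was also higher in shCDK8 cells. Its log2 level was 11.11 and 11.21 on the starved shControl arrays, 11.17 and 11.16 on the serum shControl arrays, 11.42 and 11.42 on the starved shCDK8 arrays and 11.31 and 11.32 on the serum shCDK8 arrays. The lines did not overlap, and the starved shCDK8 pair lay above the serum shCDK8 pair. RPS19 was higher by 0.26 ± 0.06 in starved cells (1.19-fold, adjusted p = 0.0288) and by 0.20 ± 0.05 on average (1.15-fold, adjusted p = 0.00991, limma). After serum its value was 0.15 ± 0.06 (adjusted p = 0.178). The average held under all 14 alternatives (adjusted p up to 0.0377, limma). The starved call was lost under 6 of 15, among them each left-out array of the 2 starved groups except starved shControl array 2, each left-out serum shControl array, and the fit on the compared arrays alone (adjusted p up to 0.145).

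RPS24, also a Diamond-Blackfan anaemia gene, ran the other way. Its log2 level was 10.35 and 10.20 on the starved shControl arrays, 10.25 and 10.24 on the serum shControl arrays, 10.11 and 9.89 on the starved shCDK8 arrays and 10.12 and 9.88 on the serum shCDK8 arrays. All shCDK8 arrays lay below all shControl arrays, but the shCDK8 duplicates were themselves 0.2 or more apart. RPS24 was lower, at -0.26 ± 0.07 on average (1.20-fold lower, adjusted p = 0.0289, limma). Its values of -0.28 ± 0.10 in starved cells and -0.24 ± 0.10 after serum did not pass (adjusted p = 0.124 and 0.172). The average held under 9 of 14 alternatives and was lost without starved shControl array 1 (adjusted p = 0.0975), without either serum shControl array (0.0761 and 0.0732) and without array 2 of starved or of serum shCDK8 (0.104 and 0.0972).

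RPS15, a protein of the small subunit's head near the decoding site, had log2 levels of 11.53 and 11.50 on the starved shControl arrays, 11.52 and 11.51 on the serum shControl arrays, 11.42 and 11.26 on the starved shCDK8 arrays and 11.35 and 11.38 on the serum shCDK8 arrays. The shControl arrays lay within 0.04 of each other and above all shCDK8 arrays. RPS15 was lower, at -0.17 ± 0.05 on average (1.12-fold lower, adjusted p = 0.0406, limma), with -0.18 ± 0.07 in starved cells and -0.15 ± 0.07 after serum, neither past the threshold (adjusted p = 0.148 and 0.220). It held under 6 of 14 alternatives. It was lost with cyclic loess scaling (adjusted p = 0.0825) and on leaving out any 1 array other than starved shCDK8 array 1, with adjusted p-values up to 0.138 (limma).

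**Figure D4:**
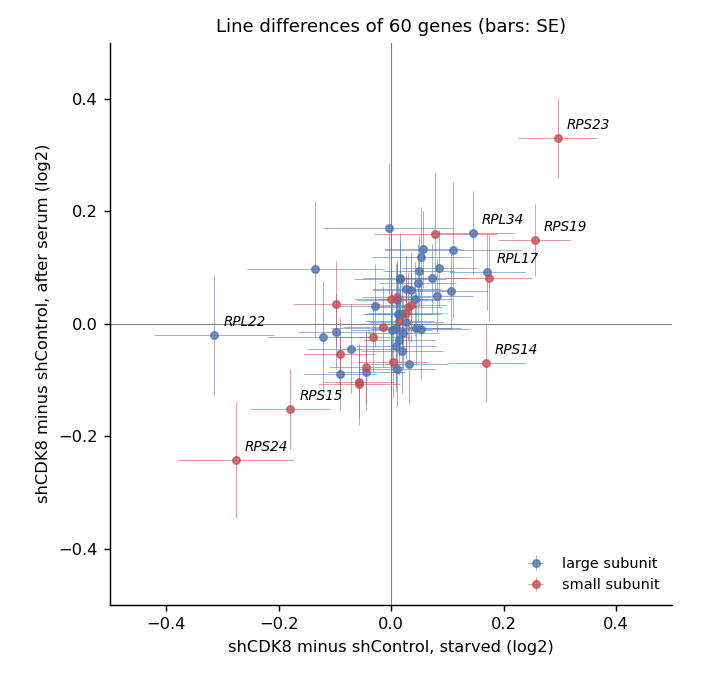
The shCDK8 minus shControl difference (log2) of each of the 60 genes in starved cells (horizontal axis) and after serum (vertical axis), with standard errors as bars and the subunit as colour. RPS23 and RPS19 stand apart at the upper right and RPS24 and RPS15 at the lower left, and RPL22 is low in starved cells alone. Many of the other genes lie within their standard errors of 0 and many lie outside them.

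Several members came close without passing. RPL22 was at -0.31 ± 0.11 in starved cells (adjusted p = 0.0900, limma) and at -0.020 ± 0.11 after serum. RPL34 averaged 0.15 ± 0.05 (adjusted p = 0.0638, limma), RPL17, a protein at the rim of the exit tunnel, 0.13 ± 0.05 (adjusted p = 0.0817) and RPS7 0.13 ± 0.05 (adjusted p = 0.131). RPL5, RPL3 and RPL10 averaged 0.09 ± 0.05, 0.08 ± 0.05 and 0.12 ± 0.09, with adjusted p-values of 0.217, 0.261 and 0.379 (limma). RPS6 averaged 0.022 ± 0.05, RPL11 0.026 ± 0.05, RPLP1 0.017 ± 0.05 and RPLP2 0.018 ± 0.05.

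The median line difference of the 60 genes was 0.015 in starved cells, 0.018 after serum and 0.018 on average, against -0.014, -0.0069 and -0.014 over all genes. With cyclic loess scaling it was 0.058 in starved cells and 0.046 on average. In starved cells 58 of the 60 intervals lay inside ±0.5 and after serum all 60, against 88.2% and 87.6% of all genes. Without starved shControl array 1, the array that reads high in most of the 60 genes, 0 genes passed in starved cells, against 8.68% of all genes, and 2 on average, RPS23 and RPS19, against 20.3%. The starved median was 0.056 without starved shControl array 1 and -0.021 without array 2. The 36 genes with a TOP tract had a median average difference of 0.022 and the 13 matched genes without one 0.033. Their serum medians were -0.029 and -0.021.

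The count between the lines depended on how the variance was modelled. With a variance prior that follows intensity, which gives bright probe sets a smaller expected variance, 7 genes passed in starved cells (4 higher, 3 lower), 6 after serum (4 higher, 2 lower) and 14 on average (10 higher, 4 lower; 8 of the large subunit), beside 17.0%, 18.3% and 26.6% of all genes. The 14 spanned sizes from 0.072 to 0.313. A gene shifted by 0.25 in simulated data was recovered in 16% of cases and one shifted by 0.5 in 92%, for the comparison of the starved lines over 18417 genes with the main model. These rates cover genes of all levels, and recovery among the members alone was not simulated. The simulation gave 167 calls where the data gave 2470 in that comparison. The same adjusted threshold therefore asked for a smaller p in the simulation than in the data, and the rates do not carry over to the data.

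Of the 21 genes with several probe sets, 18 had line averages within 0.1 of each other on all of them, although the levels of a gene's probe sets differed by a median of 1.71 and by up to 6.36. RPS15 had its line average on both of its probe sets, -0.17 and -0.19 (adjusted p over all probe sets 0.0427 and 0.0654, limma). RPS23, RPS19 and RPS24 have 1 such probe set each, so their line differences could not be compared in this way. The probe sets of RPL34 differed in sign: the one with the higher level gave 0.15 and the dimmer one, 6.36 lower on the log2 scale, gave -0.18, and neither passed. RPL27A had 1 of its 3 probe sets past the threshold. The probe set used for the gene had 12.20 and 12.14 (starved shControl), 12.21 and 12.17 (serum shControl), 12.20 and 12.18 (starved shCDK8) and 12.32 and 12.23 (serum shCDK8). Its dimmest probe set had 7.88 and 8.11 (starved shControl), 8.08 and 8.27 (serum shControl), 8.39 and 8.48 (starved shCDK8) and 8.49 and 8.38 (serum shCDK8), with all shCDK8 arrays above all shControl arrays and a line average of 0.35 ± 0.07 (adjusted p = 0.00482, limma). The other 2 probe sets of RPL27A gave 0.05 and 0.04. Ribosomal protein genes have many near-identical processed pseudogenes, and how far the probe sets read those copies was not tested.

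A further 47 probe sets list a ribosomal protein symbol together with another gene and cover 20 symbols, 11 of which have no probe set of their own here (RPL6, RPL9, RPL13A, RPL21, RPL36A, RPL37, RPL39, RPS10, RPS12, RPS18 and RPS26). Fitted apart with the other probe sets not paired with 1 gene, 0 of the 47 passed in the serum comparisons or at either time between the lines, and 1 was lower on average. That probe set lists the small nucleolar RNA SNORD73A and its host gene RPS3A. Its log2 level was 7.67 and 7.78 (starved shControl), 7.73 and 7.97 (serum shControl), 7.38 and 7.48 (starved shCDK8) and 7.12 and 7.19 (serum shCDK8), with a line average of -0.50 ± 0.07 (adjusted p = 0.0427 over 13837 probe sets, limma). RPS3A itself, on the probe set used for the gene, ranged over 0.067 across all 8 arrays.

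Other genes of ribosome production and use are set beside the members in the plot of line differences by list. The lists were drawn up from general knowledge but with earlier results of these data known, and they share some genes. Of 16 other TOP mRNAs (elongation factors, PABPC1, TPT1 and the like) 0 passed in any serum comparison or between the lines, with a median line average of 0.038. Of 34 translation factors, 2 were higher and 4 lower in shCDK8 cells on average (17.6%, against 23.3% of all genes; median 0.0030). EIF4A2, an RNA helicase of initiation, was higher by 0.56 ± 0.05 and EIF3G, a subunit of the initiation factor that binds the small subunit, was lower (-0.55 ± 0.05). Both passed at both times too.

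**Figure D5:**
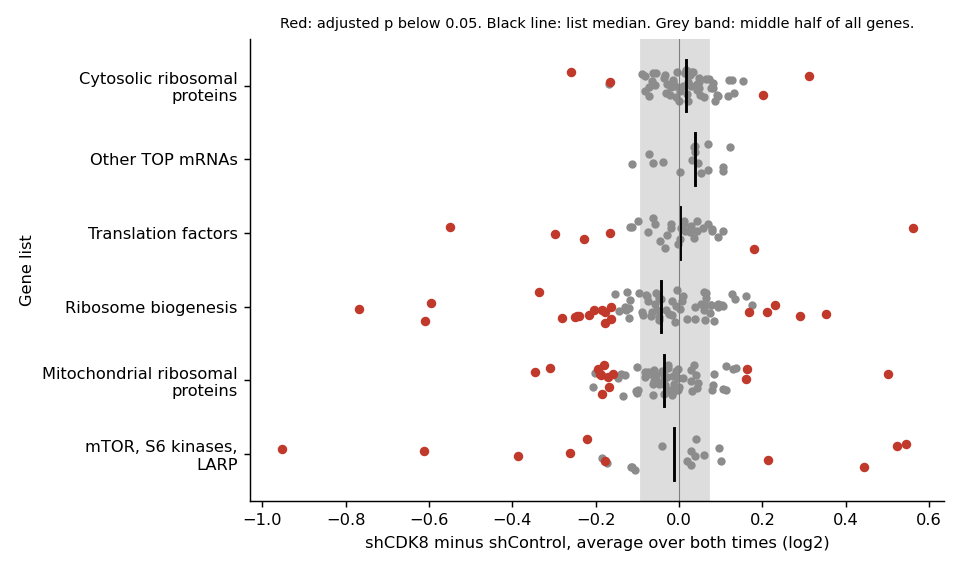
Average shCDK8 minus shControl difference (log2, horizontal axis) of every measured gene of 6 lists (vertical axis); red points have an adjusted p below 0.05, black lines are list medians and the grey band is the interquartile range of all genes. The 60 cytosolic ribosomal protein genes lie between -0.26 and 0.31 around a median of 0.018, while the lists of biogenesis factors and mTOR genes reach past -0.7.

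Ribosome biogenesis factors gave 5 higher and 15 lower of 76 on average (26.3%, against 23.3% of all genes; median -0.044). UTP4, a factor of 18S rRNA processing, had log2 levels of 11.03, 10.99, 10.93 and 11.03 on the shControl arrays and 10.26, 10.20, 10.17 and 10.29 on the shCDK8 arrays, and averaged -0.77 ± 0.05. TAF1B, of the RNA polymerase I promoter factor, averaged -0.61 ± 0.05 and NOLC1, a nucleolar phosphoprotein, -0.59 ± 0.05. POLR3D, a subunit of RNA polymerase III, averaged 0.35 ± 0.05 and BOP1, of large subunit maturation, 0.29 ± 0.05. All 5 passed at both times. On serum, SBDS, which helps release EIF6 from new large subunits, rose by 0.40 ± 0.06 in the average of both lines (adjusted p = 0.0140), and EIF5 fell by 0.30 ± 0.05 (adjusted p = 0.0375, limma). They were the only genes of the biogenesis and translation factor lists to pass in that average, and none of either list passed in 1 line alone.

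Of 24 genes around mTOR, the S6 kinases and LARP proteins, 4 were higher and 6 lower in shCDK8 cells on average (41.7%, against 23.3% of all genes). EEF2K, the kinase that slows elongation by phosphorylating EEF2, averaged 0.54 ± 0.05 and EIF4EBP2, a repressor of cap-dependent initiation that mTOR phosphorylates, 0.44 ± 0.05. RPS6KA5 averaged -0.95 ± 0.06 and RPS6KA1 -0.61 ± 0.05, both kinases downstream of ERK. The RPS6KA genes did not move together. RPS6KA3 was also lower (-0.22), while RPS6KA2 was higher (0.52) and passed, and RPS6KA4 and RPS6KA6 did not pass (0.019 and 0.096). RICTOR, a subunit of mTOR complex 2, averaged -0.39 ± 0.06 and RHEB, the GTPase that activates mTOR complex 1, -0.26 ± 0.05. None of the 24 passed in serum against starved cells, in either line or in the average. Mitochondrial ribosomal proteins gave 3 higher and 10 lower of 73 (17.8%, against 23.3% of all genes; median -0.037), led by MRPS23 at 0.50 ± 0.06 and MRPL48 at -0.35 ± 0.05.

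Of 6 ribosomal protein paralogs and fusions outside the rule, RPS27L, a p53 target, averaged 0.42 ± 0.07 (adjusted p = 0.00120) and RPL22L1, the paralog of RPL22, -0.27 ± 0.05 (adjusted p = 0.00359, limma). RPL22L1 had log2 levels of 9.22, 9.10, 9.25 and 9.15 on the shControl arrays and 8.98, 8.91, 8.88 and 8.86 on the shCDK8 arrays. RPL26L1 averaged 0.14 ± 0.06, FAU, a fusion gene that carries a small subunit protein, 0.038 ± 0.05, RPL7L1 -0.048 ± 0.05 and RPL36AL -0.016 ± 0.07, and none of these 4 passed.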

How the data were processed

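The deposited table holds log2 probe set levels of 8 Affymetrix human gene arrays, 1 per sample, made with RMA (background correction, quantile normalization and probe summary) per the submitters' processing notes; RMA's version and the genome build were not given in the sources used here. Per the labels' protocols, total RNA was copied into biotin-labelled cRNA. Arrays have no read depth, and their number limits the precision. Of 33297 probe sets, 19460 were paired with exactly 1 gene, of which 19429 matched RefSeq by Entrez ID. For a gene with several, the probe set with the highest mean was used, which left 18417 genes, with no filter and no further scaling.

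limma 3.58.1 in R 4.3.3 fitted 4 group means to all 8 arrays (residual df 4, prior df 5.49), and 7 contrasts were taken. P-values are two-sided, with Benjamini-Hochberg adjustment across the 18417 genes of a contrast. Errors of changes are standard errors, and fold changes are on the scale of the deposited values. The 13837 probe sets not paired with 1 gene were fitted apart. The model was tested on simulated data for the starved lines, where 13 of 167 calls were false. The members and gene lists were chosen with earlier results of these data known.

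Picked in each contrast were the members that passed or, in a direction with none, the up to 3 with the smallest p. Added to them were the stalk, MDM2-binding, RPS6 and paralog members, the highest and lowest levels, and members whose probe sets differ in call. Some genes of each other list were added as well. Not every value of these genes is given above, and RPS13, RPL26, RPL36 and RPS9 are left out. The changes of the 4 genes that passed in the line average are given for the contrasts between the lines alone. RPL34, RPL17 and RPS15A, RPS7 between the lines, RPL22 and RPS14 in all contrasts, and the probe sets of RPL34 were named after their values were seen. The settings varied were a trend of the variance with intensity, the compared arrays alone, a replicate block, a filter on dim genes, cyclic loess, median centring, the mean of probe sets, each probe set alone, and leaving out each array in turn.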

Additional observations from a re-analysis of the deposited data

How the results depend on the processing

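The count of ribosomal protein genes that differed between the lines moved with the variance model and with single arrays. With an intensity trend it was 7 in starved cells, 6 after serum and 14 on average, in place of 2, 1 and 4, and with the compared arrays alone it was 1 in starved cells (10.7% of all genes). Leaving out 1 array at a time gave 0 to 2 in starved cells, 0 to 1 after serum and 2 to 5 on average, beside 7.97% to 12.6%, 7.88% to 13.9% and 18.6% to 20.3% of all genes. The count on serum, in each line, in the average and in the difference, was 0 under every alternative run. Cyclic loess scaling moved the median line difference to 0.058 in starved cells and to 0.046 on average. Leaving out 1 array at a time gave medians from -0.060 to 0.012 for serum in shControl cells, from -0.050 to -0.0070 for the serum average and from -0.021 to 0.056 for the starved lines. Cyclic loess and median centring moved the median of all genes by at most 0.022.

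Of 1726 values of named members under alternatives, 1691 kept their side of the threshold, 10 passed newly and 25 no longer passed, and no called value changed sign. Most of the 1726 values belong to members that had not passed, many of them far from the threshold. Their count therefore says little about how firm the calls are. All 25 losses fell on the calls of RPS23, RPS19, RPS24 and RPS15 between the lines. Same-numbered arrays deviated together weakly or not at all (correlations from -0.186 to 0.126 over 6 pairs of groups, 1 of them over 0.1). Each group gives a single gap between its duplicates, so these correlations cannot decide whether the numbers pair the samples. With a replicate block the counts stayed at 2, 1 and 4 between the lines, beside 12.5%, 13.8% and 22.6% of all genes, and 0 on serum. A gene that did not pass is not shown to be unchanged. Cross-hybridisation to pseudogenes was not tested.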
